A study of Mus musculus with 6 samples.

Results

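Transcript levels of 45 cell cycle and proliferation genes were followed in embryonic mouse kidneys with and without Sall1, which encodes a zinc finger protein that regulates transcription in nephron progenitors. The genes were taken as a fixed list of replication factors, cyclins and their regulators, mitotic factors and cell cycle inhibitors, and each was read from the array probe whose RefSeq accession belongs to it, the brightest one where there were several. Probes were found for 44 of the 45 genes. The cyclin D1 gene, Ccnd1, had no matched probe and is not analysed here. The 44 genes were 13 of replication, 6 of G1/S control, 23 of G2 and mitosis and 2 inhibitors, out of 26939 features tested in all, which comprised 15235 named genes and 11704 probes without a matched name.

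All 6 one-colour arrays came from E14.5 kidneys of mice of a hybrid of 129 and C57BL/6, with 1 array per sample. In the Six2Cre line, in which floxed Sall1 is deleted in nephron progenitors, there were 2 knockout arrays (numbers 7 and 9) and 2 control arrays (numbers 5 and 2). In the inducible CreER line, whose recombinase is named for the Sall1 gene itself, there was 1 knockout array (number 5) and 1 control array (number 2), with tamoxifen at E12.5 and dissection 48 hours later. The knockout of that line is titled CreER/flox and its control wt/flox, so that the presence of CreER and the loss of Sall1 cannot be told apart in it. The line of each array was read from the style of its title together with the design text. A label mentions tamoxifen for all 6 samples, and it is not stated if the Six2Cre controls had Cre or if the samples are from different embryos. P-values therefore measure only the spread between these samples, which may be technical.

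A dividing cell passes through a fixed order of gene programmes. In G1, D- and E-type cyclins with their kinases inactivate the retinoblastoma proteins and free E2F factors, which switch on the genes of DNA replication. The MCM helicase is loaded on origins by Cdc6 and Cdt1, and ribonucleotide reductase and thymidylate synthase supply nucleotides. In G2 and mitosis, cyclin A and cyclin B with Cdk1, the Polo and Aurora kinases, kinesins and centromere proteins take over, under control of MYB and FOXM1 complexes that bind the cell cycle homology region, CHR, of their promoters. The inhibitors p27 and p57, products of Cdkn1b and Cdkn1c, hold cells out of the cycle. In the embryonic kidney, nephron progenitors divide to renew themselves while podocytes leave the cycle.

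Promoters of the replication and of the mitotic genes differed in these elements. RefSeq windows from 250 bases before to 50 bases after the start of transcription (build GRCm38.p6) were available for 34 of the 44 genes, as 36 windows, and were read beside 32851 windows of all genes. An E2F site, searched on both strands as TTTCCCGC, TTTGGCGC, TTTCGCGC or TTTGCCGC, lay in 6 of 12 replication windows (50%) and in 1 of 18 G2 and mitosis windows (5.56%), beside 2.26% of all windows. The contrast was smaller in the wider cell cycle lists, with an E2F site in 10 of 45 windows of other replication genes (22.2%) and 5 of 58 of other G2 and mitosis genes (8.62%). A CHR, searched on both strands as TTTGAA, lay in 13 of 18 G2 and mitosis windows (72.2%) and in 1 of 12 replication windows (8.33%), beside 17.9% of all windows. In the wider lists it lay in 33 of 58 windows of other G2 and mitosis genes (56.9%) and 7 of 45 of other replication genes (15.6%). The CCAAT box lay in 16 of 18 G2 and mitosis windows (88.9%), 9 of 12 replication windows (75%) and 37.4% of all windows. Matches of different motifs were allowed to overlap. A match is a description of the sequence and no evidence that a factor binds there.

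The stretches below, with the motif in capitals, are 3 E2F sites and 3 CHR sites from genes whose Six2Cre knockout values all lay below the control values. They were chosen to show the element that was more frequent in the replication or in the mitotic promoters. Matches also lay in genes whose Six2Cre knockout and control values overlapped. Among these were Cdc6 with an E2F site, and Cdk1, Mki67, Kif11 and Ube2c with a CHR. The mitotic gene Cdk1 also held an E2F site, and the replication gene Mcm2 held a CHR. Each is written 5′ to 3′ on the strand of its gene. Counted from the start of transcription, the CHR matches begin at -18 in Cdc20, -23 in Top2a and -167 in Ccnb2. In Ccnb2 the match lies before the CCAAT boxes, which begin at -87, -54 and -21.
Mcm5, E2F site, chr8:75109334-75109385, plus strand: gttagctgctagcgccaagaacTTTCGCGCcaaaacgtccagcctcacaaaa
Mcm6, E2F site, chr1:128359723-128359774, minus strand: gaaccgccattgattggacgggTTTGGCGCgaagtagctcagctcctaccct
Mcm7, E2F site in reverse orientation, chr5:138172019-138172070, minus strand: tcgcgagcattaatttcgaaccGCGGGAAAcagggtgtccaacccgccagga
Cdc20, CHR, chr4:118437344-118437383, minus strand: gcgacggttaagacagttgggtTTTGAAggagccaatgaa
Ccnb2, CHR, chr9:70421694-70421743, minus strand: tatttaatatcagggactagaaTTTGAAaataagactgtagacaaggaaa
Top2a, CHR in reverse orientation, chr11:99024190-99024234, minus strand: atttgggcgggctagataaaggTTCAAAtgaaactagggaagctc

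Signals are given as multiples of the array's 75th percentile of processed signal, and differences are log2 knockout minus control. Sall1 itself had signals of 0.160 and 0.250 on the Six2Cre knockout arrays 7 and 9, against 0.385 and 0.586 on control arrays 5 and 2. The groups did not overlap, and the difference was -1.25 (SE 0.38), 2.38-fold lower in the knockouts, with a limma adjusted p of 0.604 in the fit of 4 groups and 0.0298 with the slide as a block and a trended, robust variance. In the CreER pair Sall1 was 0.0601 in the knockout and 0.412 in the control, a difference of -2.78 without an error. The labels do not give which part of Sall1 was floxed or where its probe lies relative to that part. Six2Cre knockout 7 and control 5 shared slide 1, and the other 4 arrays shared slide 2, so that each slide held a Six2Cre knockout and a control. Slides were read from the barcodes in the file headers, and scan batches were not compared. Between 71.8% of probes on the CreER knockout and 82.9% on Six2Cre knockout 9 were well above background. The negative control spots of the CreER knockout had an SD of 4.01, against 1.46 to 1.61 on the other 5 arrays.

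Marker genes of several kidney cell types had different levels in the Six2Cre groups. All 12 nephron progenitor markers were lower in the knockouts (median -1.11), beside 46.2% of features. Limma called 0 of the 12 in the fit of 4 groups, beside 0.0% of features. With the slide as a block and a trended, robust variance it called 8, beside 2.32%. On simulated data that fit made more false calls than its threshold allows. The summed signal of the 12 was 19.4 and 19.5 on the knockout arrays, against 44.6 and 51.9 on the controls. The summed signal of 12 stromal markers was 209 and 183.7 in the knockouts, against 131.3 and 113.6 in the controls. The summed signal of 12 macrophage markers was 7.26 and 9.51 in the knockouts, against 4.63 and 5.72 in the controls. Early nephron markers summed to 6.84 and 8.97 in the knockouts, against 17.85 and 20.6 in the controls. For ureteric bud markers the sums were 148.3 and 125.2 against 96.15 and 110, with 8 of the 12 genes higher and 4 lower. Of 12 erythroid markers 10 were tested, with sums of 181.5 and 189.6 against 157.5 and 146.5. Among these 10, 6 were higher and 4 lower. Hba-a1 alone read 143.6 and 143.5 in the knockouts, against 129.4 and 117.3 in the controls. Endothelial sums overlapped, at 46.4 and 49.4 against 43.7 and 49.98. In the CreER pair the nephron progenitor sum was 35.7 in the knockout and 52.5 in the control, and the early nephron sum 14.05 and 15.17. Other sums were higher in the CreER knockout than in its control. They were 176.5 and 98.2 for erythroid, 7.54 and 5.92 for macrophage and 63.0 and 54.0 for endothelial markers. Ureteric bud markers summed to 130.3 and 117.4, and stromal markers to 109.6 and 103.3. Of 15 skeletal muscle markers, 14 were tested and 13 of these were well above background on all 6 arrays; their sum was 3.25 and 2.84 on Six2Cre knockouts 7 and 9, against 3.17 and 36.3 on controls 5 and 2, and 5.16 in the CreER knockout against 3.79 in the CreER control. The part of these cell types in the results on cell cycle genes was not tested. In whole kidneys, fewer cells of a type and less RNA per cell cannot be told apart.

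The cell cycle genes gave high signals, and their values differed little between knockout and control kidneys. All 44 were well above background on all 6 arrays, and 37 exceeded the array's 75th percentile on every array, as did 28.33% of all features. In the Six2Cre comparison none of the 44 was called at an adjusted p under 0.05 (limma with Benjamini-Hochberg adjustment, two-sided, 2 arrays per group), beside 0.0% of the 26939 features. The smallest adjusted p among the 44 was 0.9997. This fit also called none of the features changed in simulated data, so the absence of calls in it does not show that these genes were unaltered. At an unadjusted p under 0.05, limma gave 0 of the 44, beside 6.27% of features, and with the slide as a block also 0 of the 44, beside 11.4%. None of the 44 differed by 2-fold or more, beside 6.05% of features. With the slide as a block and a trended, robust variance, limma called 0 of the 44 at an adjusted p under 0.05, beside 2.32% of features.

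The differences ran from -0.43 for Cdkn1b to 0.21 for Ccnd2, with a median of -0.11, beside 0.03 over all features. Lower values in the knockouts were found for 30 of the 44 genes, beside 46.2% of features, and higher values for 14. The median size of the difference was 0.13 for the 44 genes and 0.22 for all features. The 95% interval of the difference lay within 2-fold in either direction for 31 of the 44 genes in the fit of 4 groups, and for 10737 of the 26939 features. With the slide as a block it did so for 42 of the 44, the exceptions being Cdkn1b and Cdkn1c, and for 17844 features.

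**Figure D1:**
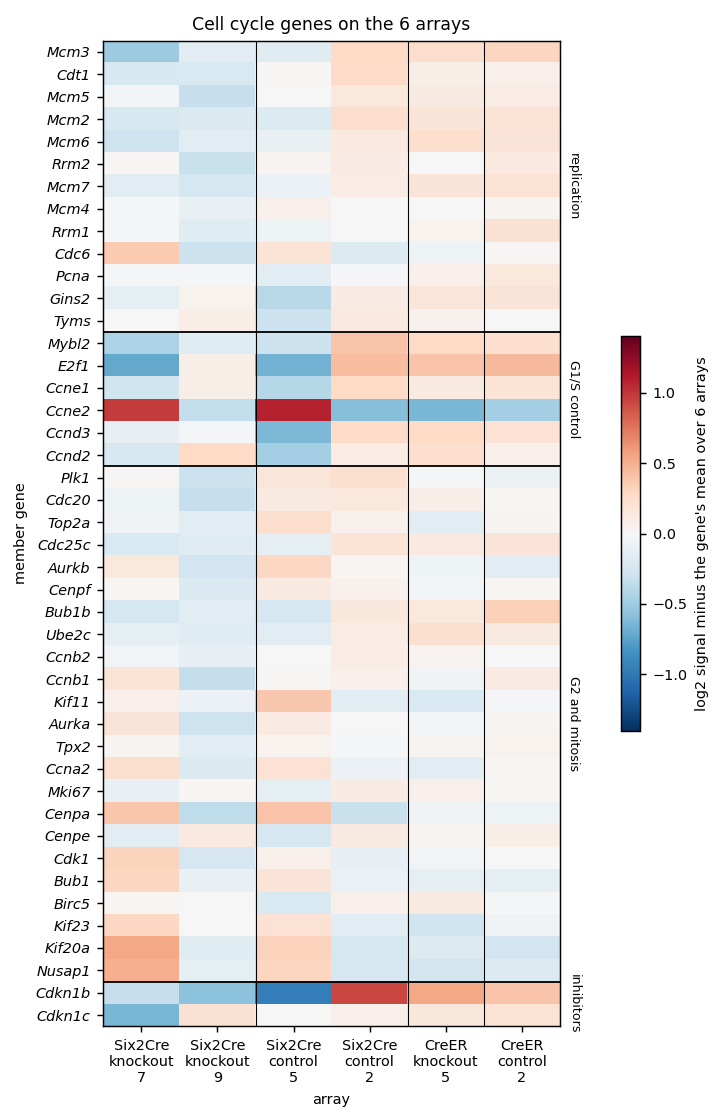
Signal of the 44 cell cycle genes (rows, grouped by role) on the 6 arrays (columns, knockouts left of controls in each line), as log2 signal minus the gene's mean over the 6 arrays. Ccne2, E2f1 and Cdkn1b show the widest range, and Ccne2 is high on the 2 slide 1 arrays, Six2Cre knockout 7 and Six2Cre control 5.

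The knockout and control values did not overlap for 13 of the 44 genes, all of them lower in the knockouts, beside 12.6% of features. No gene of the 44 had higher values in both knockouts than in both controls, beside 17.5% of features. The 13 genes were 7 of replication (Mcm2, Mcm4, Mcm5, Mcm6, Mcm7, Cdt1 and Rrm2) and 6 of G2 and mitosis (Top2a, Ccnb2, Cdc20, Plk1, Cenpf and Cdc25c). Their differences were between -0.36 and -0.10. None passed the test.

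**Figure D2:**
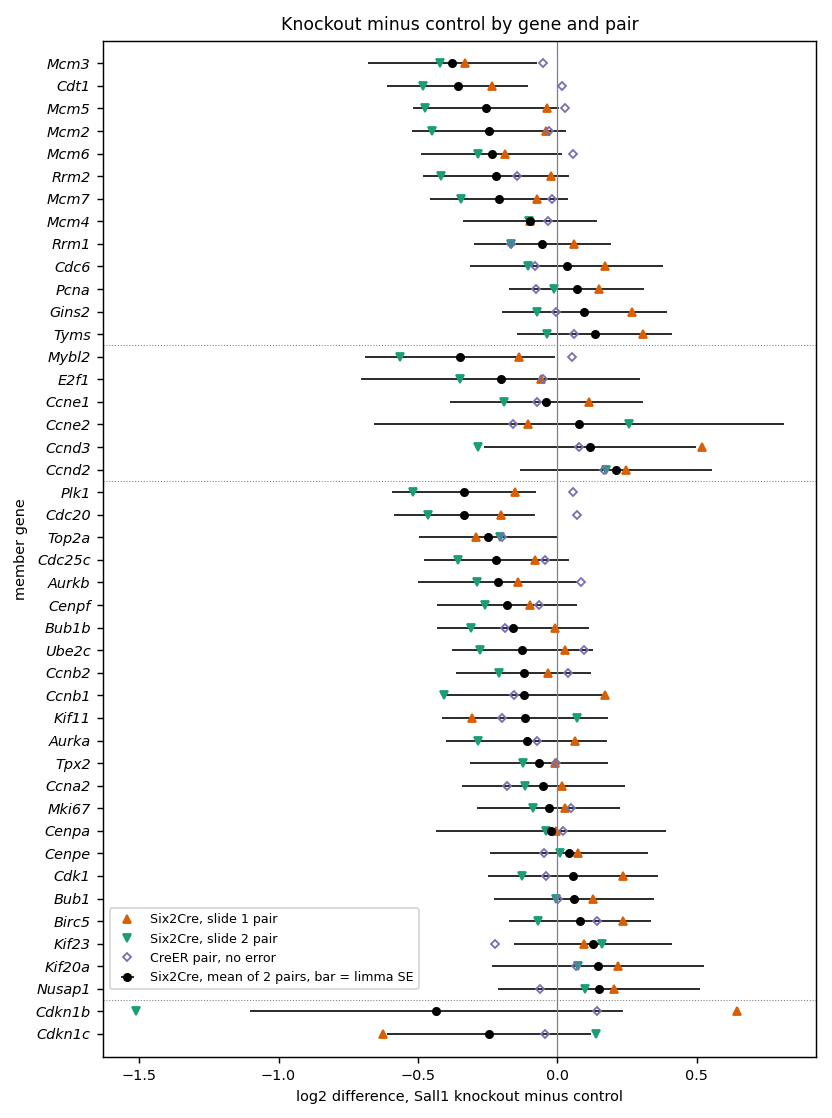
Log2 difference, knockout minus control, of each of the 44 genes. Black points are the Six2Cre means over 2 pairs with the limma SE, filled triangles are the Six2Cre pairs on slides 1 and 2, and open diamonds are the CreER pair, which has no error. The slide 2 pair is below 0 for 36 of the 44 genes and the slide 1 pair for 23.

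Among the 13 replication genes, 9 were lower and 4 higher in the Six2Cre knockouts, with a median difference of -0.21. Mcm3, a subunit of the replicative helicase, had signals of 3.17 and 4.06 on knockout arrays 7 and 9, against 3.98 and 5.44 on control arrays 5 and 2. Knockout 7 was the lowest array, and knockout 9 lay just above control 5, so that the groups overlapped. The difference was -0.38 (SE 0.30), or 1.30-fold lower, with an unadjusted p of 0.273 and an adjusted p of 0.9997 in limma. With the slide as a block and a trended, robust variance the unadjusted p was 0.0275 and the adjusted p 0.286. Cdt1, which loads the helicase with Cdc6, read 10.7 and 10.8 in the knockouts and 12.6 and 15.1 in the controls. Its difference was -0.36 (SE 0.25, limma adjusted p 0.9997), and its unadjusted p in the blocked, trended fit was 0.0427. Mcm3 and Cdt1 were the 2 of 44 genes with an unadjusted p under 0.05 in that fit, beside 13.2% of features.

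The other helicase subunits had smaller differences. Mcm5 had signals of 16.3 and 13.4 in the knockouts, against 16.8 and 18.7 in the controls, a difference of -0.26 (SE 0.26). The signals of Mcm2 were 5.78 and 5.87 in the knockouts, against 5.94 and 8.01 in the controls (difference -0.25, SE 0.28). In both genes control 2 was the highest of the 4 Six2Cre arrays. Mcm6 read 37.4 and 41.0 in the knockouts and 42.5 and 49.99 in the controls (difference -0.24, SE 0.25). For Mcm7 the knockouts read 26.3 and 24.6 and the controls 27.6 and 31.3 (difference -0.21, SE 0.25). Mcm4 differed by -0.10 (SE 0.24), with 30.4 and 28.9 in the knockouts and 32.5 and 31.0 in the controls. Mcm5, Mcm6 and Mcm7 are the genes whose E2F sites are printed above.

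Genes of nucleotide supply and of the replication fork went in both directions. Rrm2, the regulated subunit of ribonucleotide reductase, had signals of 3.04 and 2.42 in the knockouts, against 3.08 and 3.24 in the controls (difference -0.22, SE 0.26). Its partner subunit Rrm1 differed by -0.05 (SE 0.24). Pcna, the sliding clamp of the polymerases, read 33.9 and 33.6 in the knockouts and 30.5 and 33.9 in the controls, so that all 4 arrays lay close together (difference 0.07, SE 0.24). The differences of Tyms, thymidylate synthase, of the GINS subunit Gins2 and of the loading factor Cdc6 were 0.13 (SE 0.28), 0.10 (SE 0.30) and 0.03 (SE 0.35).

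Of the 23 genes of G2 and mitosis, 16 were lower and 7 higher in the Six2Cre knockouts, with a median difference of -0.11. Plk1, the Polo kinase of mitotic entry and exit, had signals of 14.2 and 11.4 on knockout arrays 7 and 9, against 15.7 and 16.3 on control arrays 5 and 2. The difference was -0.33 (SE 0.26), or 1.26-fold lower, with a limma adjusted p of 0.9997. Cdc20, the activator of the anaphase-promoting complex, read 18.3 and 15.4 in the knockouts and 21.0 and 21.2 in the controls (difference -0.33, SE 0.25). In both genes the knockouts lay below the controls, with knockout 9 the lowest. Top2a, the topoisomerase that untangles chromosomes, read 4.78 and 4.47 in the knockouts and 5.86 and 5.15 in the controls (difference -0.25, SE 0.25).

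Cyclins and kinases of mitosis showed smaller differences. Ccnb2, a B-type cyclin, had signals of 20.4 and 19.4 in the knockouts, against 20.8 and 22.4 in the controls (difference -0.12, SE 0.24). Ccnb1 also differed by -0.12 (SE 0.29), but its groups overlapped, with 3.71 and 2.58 in the knockouts and 3.30 and 3.42 in the controls. Cdk1, the kinase that both cyclins activate, differed by 0.06 (SE 0.30), and Ccna2, cyclin A, by -0.05 (SE 0.29). The Aurora kinase genes Aurka and Aurkb differed by -0.11 (SE 0.29) and -0.21 (SE 0.29). Cdc25c, a phosphatase that activates Cdk1, had 0.765 and 0.786 in the knockouts and 0.809 and 1.01 in the controls (difference -0.22, SE 0.26).

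Genes of the spindle, the checkpoint and the centromere lay on both sides of 0. Mki67, which encodes the Ki-67 protein used to stain dividing cells, read 30.6 and 33.6 in the knockouts and 30.0 and 35.7 in the controls, with both knockouts between the controls (difference -0.03, SE 0.26). The centromere protein gene Cenpf read 8.99 and 7.65 in the knockouts and 9.61 and 9.16 in the controls (difference -0.18, SE 0.25). Cenpa, the centromeric histone, differed by -0.02 (SE 0.41), and the kinesin gene Cenpe by 0.04 (SE 0.28). The checkpoint genes Bub1b and Bub1 differed by -0.16 (SE 0.27) and 0.06 (SE 0.29). Ube2c, an E2 enzyme of the anaphase-promoting complex, and Birc5, survivin, differed by -0.12 (SE 0.25) and 0.08 (SE 0.26). The motor genes Kif11, Kif23 and Kif20a differed by -0.12 (SE 0.30), 0.13 (SE 0.28) and 0.15 (SE 0.38), and the spindle genes Tpx2 and Nusap1 by -0.07 (SE 0.25) and 0.15 (SE 0.36).

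The 6 genes of G1/S control had 3 lower and 3 higher values in the Six2Cre knockouts, with a median difference of 0.02. Ccnd2, a D-type cyclin, had signals of 22.8 and 32.3 on knockout arrays 7 and 9, against 19.2 and 28.6 on control arrays 5 and 2 (difference 0.21, SE 0.34). The slide 1 arrays were the lower of each group, so that the groups overlapped. Ccnd3 read 7.96 and 8.52 in the knockouts and 5.55 and 10.4 in the controls (difference 0.12, SE 0.38). Mybl2, the B-Myb factor of mitotic promoters, read 0.918 and 1.11 in the knockouts and 1.01 and 1.64 in the controls (difference -0.35, SE 0.34).

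The signals of E2f1, the best known activating E2F, were 0.567 and 0.984 in the knockouts, against 0.590 and 1.25 in the controls (difference -0.20, SE 0.50). Ccne1, cyclin E1, differed by -0.04 (SE 0.35). Ccne2, cyclin E2, read 0.728 and 0.292 in the knockouts and 0.783 and 0.244 in the controls (difference 0.08, SE 0.74). In E2f1 and Ccne2 the arrays fell by slide and not by genotype: E2f1 was lower and Ccne2 higher on both slide 1 arrays.

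The inhibitor genes had no common value over the 2 Six2Cre pairs. Cdkn1b read 0.441 and 0.369 on knockout arrays 7 and 9, against 0.282 and 1.05 on control arrays 5 and 2 (difference -0.43, SE 0.67). The controls lay on either side of both knockouts, so that the slide 1 pair differed by 0.64 and the slide 2 pair by -1.51. A second, dimmer probe of Cdkn1b gave -1.35 on slide 1 and 0.30 on slide 2, the opposite sign on each slide. Control 2, with the highest Cdkn1b, is also the array with the high muscle sum of 36.3.

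Cdkn1c read 35.5 and 64.0 in the knockouts and 54.8 and 58.2 in the controls (difference -0.24, SE 0.37), with knockout 7 the lowest array and knockout 9 the highest. Cdkn1c is also a podocyte marker. Of the 12 podocyte markers, 9 were lower and 3 higher in the knockouts. The sum of the other 11 markers was 15.5 and 16.3 in the knockouts and 18.8 and 17.6 in the controls, and 8 of the 11 were well above background on all 6 arrays. The defining podocyte gene Nphs1, of the slit diaphragm, read 0.00418 and 0.0299 in the knockouts and 0.109 and 0.148 in the controls, and was well above background on 5 of the 6 arrays. The part of podocytes or muscle in these values was not tested.

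**Figure D3:**
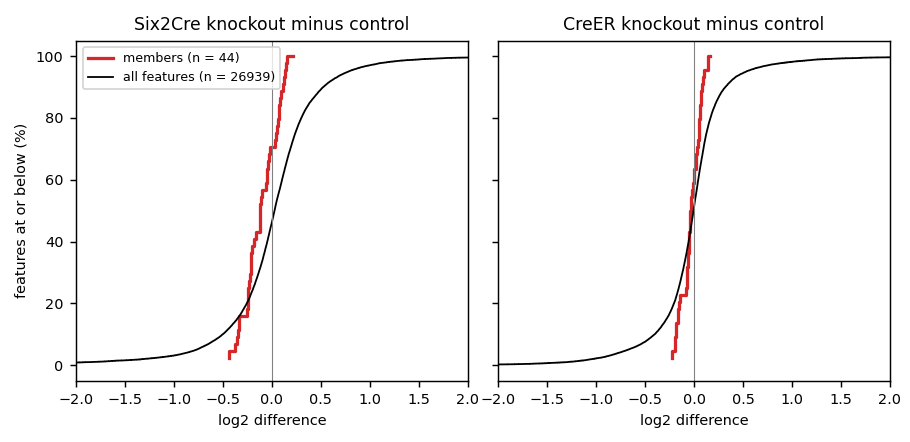
Share of features (vertical axis, %) at or below a log2 difference, knockout minus control (horizontal axis), for the 44 cell cycle genes (red steps) and all 26939 features (black line), in the Six2Cre line (left) and the CreER line (right). The cell cycle genes lie between -0.43 and 0.21 in the Six2Cre line and between -0.22 and 0.17 in the CreER line.

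The slide 2 pair carried most of the lower values. On slide 2, 36 of the 44 genes were lower in knockout 9 than in control 2, beside 41.8% of features, and these included all 13 replication genes and 18 of 23 genes of G2 and mitosis. On slide 1, 23 of the 44 were lower in knockout 7 than in control 5, beside 48.1% of features. The replication genes had a median difference of -0.29 on slide 2 and -0.04 on slide 1, and the G2 and mitosis genes -0.13 and 0.02. Over all features these medians were 0.07 and 0.02. Lower values on both slides were found for 20 of the 44, beside 24.5% of features, and higher values on both for 5, beside 34.6%.

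Knockout 9 could also be read beside the other 3 arrays of its slide, which included the CreER pair. It was the lowest of the 4 slide 2 arrays for 31 of the 44 genes, beside 29.8% of features, among them 12 of 13 replication genes and 14 of 23 genes of G2 and mitosis. It was the highest for 7 of the 44, beside 39.3% of features. The muscle sum was 2.84 on knockout 9, 36.3 on control 2, 5.16 on the CreER knockout and 3.79 on the CreER control.

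Replication and mitosis genes were next compared on each array, as the mean over the genes of the log2 signal minus the gene's mean over the 6 arrays. The replication genes averaged -0.09 and -0.16 on Six2Cre knockouts 7 and 9, against -0.09 and 0.10 on controls 5 and 2. In the CreER line the replication genes averaged 0.10 in the knockout and 0.14 in the control. The G2 and mitosis genes averaged 0.10 and -0.16 on Six2Cre knockouts 7 and 9, against 0.09 and 0.0012 on controls 5 and 2. Knockout 9 had the lowest mean of the 6 arrays in both groups of genes, while the slide 1 arrays had low replication and high mitosis means in knockout and control alike.

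The difference between the replication and the mitosis mean was closer between the arrays of a slide than between those of a genotype in the Six2Cre line. It was -0.19 and 0.0032 on Six2Cre knockouts 7 and 9, and -0.18 and 0.10 on controls 5 and 2. Within slides, knockout minus control was -0.01 on slide 1 and -0.10 on slide 2. The CreER pair gave 0.14 in the knockout and 0.13 in the control, a difference of 0.0030. No test was made of these means, because the genes were chosen as lists.

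**Figure D4:**
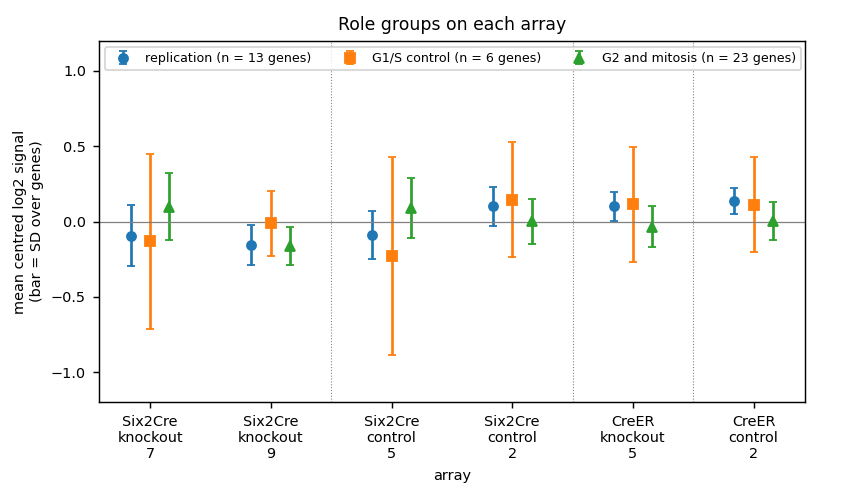
Mean over genes of the log2 signal, minus the gene's mean over the 6 arrays (vertical axis), for replication, G1/S control and G2 and mitosis genes on each array (horizontal axis). Bars are the SD over genes and not an error of the array. Replication and mitosis means are both -0.16 on Six2Cre knockout 9.

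In the CreER line, 48 hours after tamoxifen, the 44 genes differed little between the single knockout and the single control. None differed by 2-fold or more, beside 3.58% of the 26462 features well above background on 1 or both of these arrays, and none by 1.5-fold, beside 9.93%. The differences ran from -0.22 for Kif23 to 0.17 for Ccnd2, and 26 of the 44 were lower, beside 51.6% of features. Replication genes had a median of -0.03 and G2 and mitosis genes of -0.04. Mcm3 read 5.34 in the CreER knockout and 5.53 in the control, and Cdt1 13.3 and 13.1. Plk1 read 13.8 in the knockout and 13.3 in the control, and Cdc20 20.4 and 19.5. With 1 array in each group these differences have no replicate check.

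Across the 3 pairs, 11 of the 44 genes were lower in every knockout, beside 14.4% of features, and 5 of these were replication genes and 5 genes of G2 and mitosis. Ccnd2 and Kif20a were higher in every knockout, which made 2 of 44, beside 19.9% of features. Ccnd2 had differences of 0.25 and 0.18 in the Six2Cre pairs and 0.17 in the CreER pair. Top2a was lower in all 3 pairs, by differences of -0.29, -0.20 and -0.20. A limma fit of genotype over both lines, with line and slide as covariates, called 0 of the 44, beside 0.0% of features, and at an unadjusted p under 0.05 it gave 0 of the 44, beside 9.64%. Its differences ran from -0.27 to 0.20, and its 95% interval lay within 2-fold for 43 of the 44 genes, the exception being Cdkn1b. The test of the difference between the lines, which assumes that the lone CreER arrays vary like the Six2Cre groups, called 0 of the 44, beside 0.0% of features, and gave 0 of the 44 at an unadjusted p under 0.05, beside 2.28%.

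The 44 genes were close to all features in how slide and knockout differences compared. The slide difference, slide 2 minus slide 1 averaged over Six2Cre knockouts and controls, was larger in size than the knockout difference for 28 of the 44, beside 61.2% of features. It was larger for all 6 genes of G1/S control and for 4 of 13 replication genes. Ccne2 had the largest slide difference, at -1.497, followed by E2f1 at 0.94, Cdkn1b at 0.82, Cenpa at -0.73 and Kif20a at -0.64. A slide difference of 2-fold or more was found for 1 of the 44, beside 8.48% of features.

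**Figure D5:**
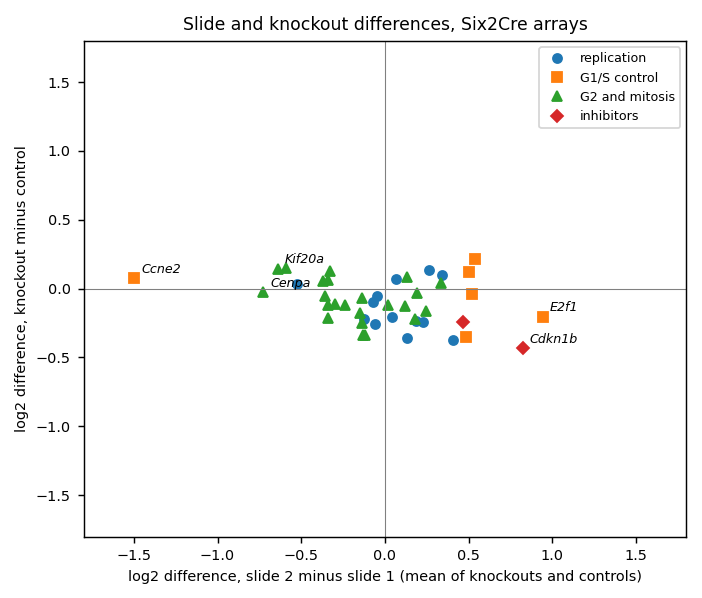
Log2 difference between slides (horizontal axis, slide 2 minus slide 1) and between genotypes (vertical axis, knockout minus control) of the 44 genes on the 4 Six2Cre arrays, by role. Ccne2, at -1.497 on the horizontal axis and 0.08 on the vertical one, lies farthest from 0 between slides.

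Other genes of the cell cycle were read from lists of 140 genes, of which 130 were tested. In the Six2Cre comparison 77 were lower and 53 higher, beside 46.2% of all features lower. The median was -0.06, beside 0.03 over all features, and limma called 0 of the 130, beside 0.0%. The 44 other replication genes had 26 lower values, the 59 other genes of G2 and mitosis 36, and the 19 other genes of G1/S control 14. Of the 8 other inhibitors, 7 were higher, with a median of 0.28. The 3 replication genes of lowest p were Ung at -0.50 (SE 0.26), Uhrf1 at -0.39 (SE 0.24) and Pold1 at -0.31 (SE 0.24), which act in uracil repair, maintenance of DNA methylation and DNA synthesis. In G2 and mitosis they were Sgo2a, a protector of cohesin, at -0.82 (SE 0.35), the securin gene Pttg1 at 0.46 (SE 0.25) and the centriole kinase gene Plk4 at -0.73 (SE 0.39). Sgo2a and Plk4 rested mostly on the slide 1 pair: Sgo2a differed by -1.38 on slide 1 and -0.26 on slide 2, and Plk4 by -1.29 and -0.17. In G1/S control they were Rbl2, the retinoblastoma relative p130, at 0.66 (SE 0.25, unadjusted limma p 0.0485, adjusted p 0.792), E2f2 at -0.54 (SE 0.29) and Cdk6 at -0.40 (SE 0.24).

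Cdkn2b, which encodes the p15 inhibitor of the cyclin D kinases, had the largest difference of these 8 inhibitors. Its signals were 0.280 and 0.236 in the Six2Cre knockouts, against 0.0865 and 0.0960 in the controls, and 0.0755 in the CreER knockout against 0.0728 in the CreER control. Both Six2Cre knockouts lay above all other arrays. The difference was 1.496 (SE 0.26), or 2.82-fold higher, with a limma adjusted p of 0.239 in the fit of 4 groups and 0.0331 with the slide as a block and a trended, robust variance. In that fit Myc, named here after its values were seen, was the other of 2 genes called among the 130, beside 2.32% of all features. Myc, a growth factor-responsive transcription factor, had signals of 2.59 and 1.11 in the Six2Cre knockouts, against 5.83 and 2.16 in the controls. The groups overlapped, and each knockout lay below the control of its slide. Its difference was -1.07 (SE 0.66), 2.09-fold lower, with adjusted p 0.9997 in the fit of 4 groups and 0.0187 in the blocked, trended one. Btg2 and Cdkn2c, an antiproliferative gene and the gene of p18, had differences of 0.61 (SE 0.25) and 0.50 (SE 0.37).

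Probes of 1 gene were compared where there were several. Of the 44 genes, 27 had 1 kept probe and 17 had more, 64 probes in all. The probes of 4 genes (Ccne1, Cdc6, Cdk1 and Cenpe) had opposite signs in the Six2Cre comparison, none by more than 0.2 each way. The widest range was 0.62 for Kif11, whose dimmer probe gave -0.74, and the dimmer probe of Top2a gave -0.77. Both values rested mostly on the slide 1 pair. The dimmer Kif11 probe differed by -1.36 on slide 1 and -0.12 on slide 2, and that of Top2a by -1.21 and -0.32.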

How the data were processed

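Cy3-labelled RNA (0.25 ug) of 6 mouse kidney samples was read on one-colour Agilent arrays. Per the file headers, the authors' scans were extracted with Feature Extraction 10.5.1.1 and the processed signal is a background-subtracted intensity, with no normalization between arrays. In the deposited table of the whole series, 100% of the values of probes with a single spot equalled this intensity within a relative tolerance of 0.001. Probes with several spots were not compared in this way. The number of arrays limits the precision.

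Outlier flags removed 187 of 41174 non-control probes, which left 40987, and 24999 were named as 17235 genes by RefSeq accession (GRCm38.p6 table). Values were log2 of the processed signal, averaged over the unflagged spots of each probe, minus the array's 75th percentile. The deposited table was used only as an alternative. The brightest probe stood for a gene, probes without a name stayed features of their own, and features well above background on at least 2 arrays were kept. limma 3.58.1 (R 4.3.3, data.table version 1.17.8; lmFit and eBayes) fitted the 4 groups, tested both sides and adjusted by Benjamini-Hochberg over 26939 features at 0.05. On simulated data with features changed by known folds, this fit called none of them at any fold tried, so an absence of calls in it carries little weight. The fits with the slide as a block called those with the larger folds but not those with the smallest, and made more false calls than the threshold allows. Alternatives changed the block, background correction, normalization, probe rule, filter and arrays. Figures used Python 3.11.15, pandas 2.3.3 and matplotlib 3.10.9. All members are described, and of other cell cycle genes the 3 of lowest p per list. The members and lists were chosen with earlier results of these data known.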

Additional observations from a re-analysis of the deposited data

How the results depend on the processing

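No member was called in the Six2Cre comparison under any of the 15 alternatives. The CreER and both-line counts were each recomputed under 1 alternative, and both were 0 there too. Over all features, limma called 0 in the fit of 4 groups. It called 18 higher and 68 lower when arrays were centred on the median kept feature. With the slide as a block and a trended, robust variance it called 304 higher and 321 lower. The other alternatives that kept all 4 Six2Cre arrays called none of all features, so the absence of member calls in them carries little weight. With 1 slide pair alone, 2 medians moved by more than the spread between pairs: G1/S control to -0.24 with the slide 2 pair alone, and G2 and mitosis to 0.016 with the slide 1 pair alone. Leaving out 1 array moved the medians of G1/S control and the inhibitors by more than that spread in 2 of 4 cases each, and gave medians of -0.35 (without control 5) to 0.32 (without control 2) for G1/S control, -0.84 (without control 5) to 0.16 (without control 2) for the inhibitors, -0.26 to -0.06 for replication and -0.20 to -0.0083 for G2 and mitosis; the cause was not tested. Of the 44 members, 28 turned sign in at least 1 of the 15 alternatives, and none of the 6 whose difference exceeded 1 SE did. No pairing by replicate number was possible, because the Six2Cre knockout and control arrays share none in the labels. The pairs used are those of the slides, and the fit with the slide as a block compared knockout and control within them. Every probe taken as its own feature was added after seeing the data.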
